A study of Mus musculus with 75 samples.

Results

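The comparison described here set enteric glial cells of the submucosal plexus against those of the myenteric plexus in untreated small intestine. Its members were the 6 libraries labelled small intestine, submucosal plexus and no treatment and the 6 labelled small intestine, myenteric plexus and no treatment, of 75 libraries in the series. The series profiled glia from the gut of mice at rest and after lipopolysaccharide. Its resting experiment holds 22 libraries from both plexuses of the small intestine and the colon, and the 10 colonic libraries are used here for the shared estimate of spread and for a comparison of regions. All 12 small intestinal libraries came from adult reporter mice at 0 h with no injection, and each plexus had 3 male and 3 female libraries. These mice carry a transgene in which a promoter active in enteric glia and Schwann cells drives a green fluorescent protein. The labels give the reporter as their genotype, and their descriptions add WT. Other libraries of the series carry Gpr37-/- or Gpr37WT with the reporter and are not used here. The labels call the cells EGC, and how the cells were isolated is not given in the sources used here. No animal number is given for these libraries. Their descriptions hold a sex and a number that recur in both plexuses and both regions, and nothing says whether a shared number marks 1 animal. Nothing says either that the libraries came from separate animals, and the p-values measure only the spread between these samples, which may be technical.

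Enteric glia surround the neurons of the gut wall and send processes along nerve fibres toward muscle and mucosa. The myenteric plexus lies between the muscle layers and is known for the control of motility, whereas the submucosal plexus lies beneath the mucosa and is known for the control of secretion and blood flow. Small intestinal mucosa, which adjoins the submucosal plexus, holds epithelium, plasma cells, lymphocytes and macrophages. Muscle and the mesothelium of the outer gut surface adjoin the myenteric plexus.

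Submucosal libraries held totals of 3010934 to 7456338 counts and myenteric libraries totals of 3331701 to 7942779. A submucosal library detected 14488 to 16049 genes and a myenteric library 13357 to 14279. A count of 3, the floor used for genes without reads, corresponded to 0.395 to 1.08 and to 0.428 to 0.846 counts-per-million (CPM, scaled by TMM factors). Rank correlations were 0.838 to 0.965 within the submucosal group, 0.854 to 0.914 within the myenteric group and 0.592 to 0.754 between the groups. Submucosal replicate 2 stood closest to the myenteric libraries, with a mean correlation of 0.727, and replicate 6 came next at 0.652. Without submucosal replicate 2 the number of genes called was 5976 instead of 6123. Mitochondrial-encoded genes took 2.84% to 9.43% of the counts in submucosal and 11.6% to 18.8% in myenteric libraries.

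The labelled cell type was checked against 25 glial identity genes, and it was marked in both groups but at different levels. Summed over these genes, glial RNA took 1357 to 3696 CPM (median 2505) in submucosal and 14449 to 26239.9 CPM (median 18944) in myenteric libraries. The groups did not overlap. In bulk RNA, fewer cells of a type and less RNA per cell cannot be told apart, so this difference and those below are differences in RNA share. Markers of B and plasma cells went the opposite way, with 14464 to 134209 CPM (median 32412) in submucosal and 17.6 to 1119 CPM (median 31.5) in myenteric libraries, and submucosal replicate 3 was the highest. Paneth and goblet cell markers summed to 3290.4 to 66439 CPM (median 14235) and 32.3 to 1893 CPM (median 184), with submucosal replicate 1 the highest. The sums for absorptive epithelium were 1783 to 8757 CPM (median 2861) and 40.5 to 296 CPM (median 104). Those for macrophages were 3926 to 23686 CPM (median 13517) and 265 to 4121 CPM (median 1346), and these ranges overlapped. Neuronal RNA went with the glial RNA, at 88.3 to 257 CPM (median 144) in submucosal and 1186 to 3609 CPM (median 1921) in myenteric libraries. Smooth muscle RNA did so too, at 142 to 1367 CPM (median 883) and 1778 to 12464 CPM (median 3897). These other cell types move with the plexus in each result below, and their part in the results was not tested except where a value is given.

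**Figure D1:**
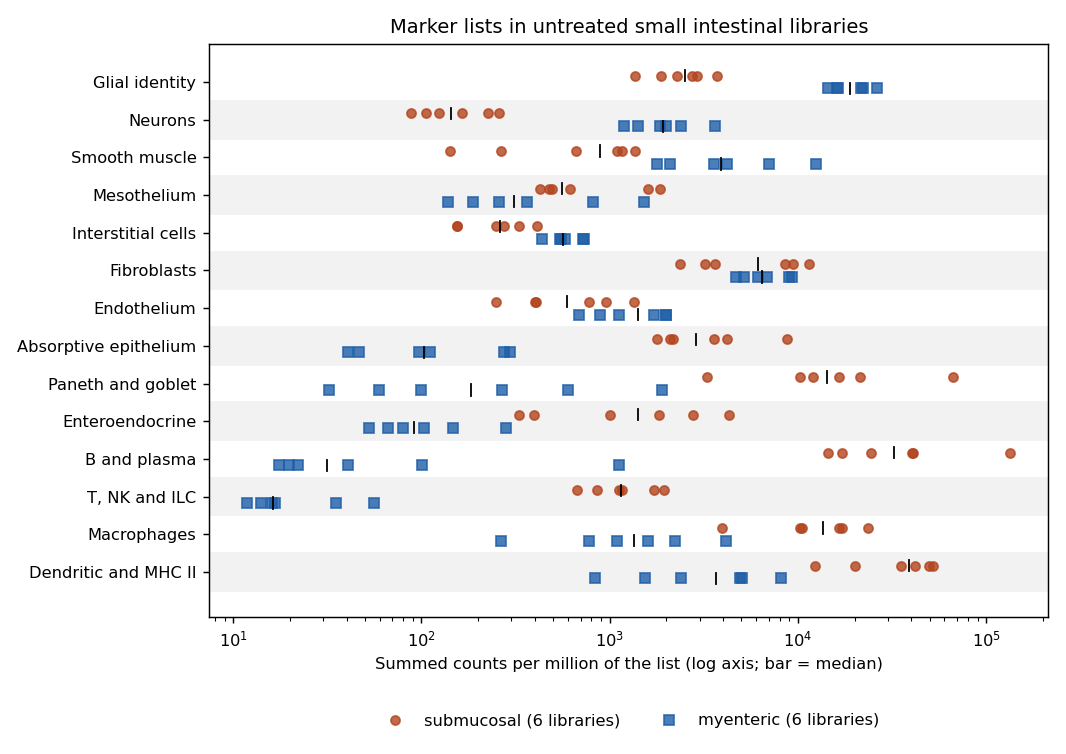
Summed CPM (log axis) of 14 marker lists in each of the 6 submucosal and 6 myenteric libraries, with a bar at the median. Glial, neuronal and smooth muscle lists lie higher in the myenteric libraries, and absorptive, Paneth and goblet, B and plasma, and T, NK and ILC lists lie higher in the submucosal libraries.

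A total of 6123 of 14090 genes, or 43.5%, passed edgeR's quasi-likelihood test at a Benjamini-Hochberg adjusted p under 0.05. Of all genes tested, 22.3% were higher and 21.2% were lower in the submucosal libraries. The 6 and 6 libraries did not overlap for 13.4% of the genes on the higher side and for 12.1% on the lower side. Since the amount of glial RNA itself differed, a second quantity was computed, the ratio to a glial reference. It scales each library so that the geometric mean of 6 glial genes, with Sox10, S100b, Foxd3, Erbb3 and Cdh19 among them, is equal. The reference genes had a geometric mean of 20.7 to 85.5 counts-per-million of the library total in submucosal and 310.1 to 568 in myenteric libraries. On this second scale the median log2 fold change of all genes moved from 0.06 to 3.25. With summed counts of the reference genes it was 3.44, and with only Sox10, S100b and Erbb3 as reference 3.16. Erbb3 was itself higher by the ratio (1.21 to 1.44 with 1 library left out), so the reference genes did not fall by equal factors. No reference without Erbb3 was fitted. With the ratio 11931 genes were higher, which is 84.7%, and 172 were lower, which is 1.22%. Of the 2981 genes lower in CPM, 172 were lower relative to the reference as well, 1317 did not pass the test and 1492 were higher. The direction of those 1492 genes thus turned with the scale, and each list below is given on both. The offset of this scale also differed between fits of 1 sex. In male libraries alone 53.8% of all genes were higher and 1.07% lower by the ratio, with a median of 2.20, and in female libraries alone 82.8% and 0.417%, with a median of 3.94. By CPM the shares were 9.68% and 8.61% in male and 16.2% and 15% in female libraries alone. Each fit of 1 sex had its own low-count filter, which kept 14430 genes in male and 14396 in female libraries. Counts of a list in 1 sex are to be read against these shares, and their denominators are those of that fit where given. Counts of list members are over the genes that passed the low-count filter. A gene that passed it only through the group where it is high had to differ, so these counts are descriptions. The filter kept 16 of 19 myelin, 13 of 18 astrocyte-like, 19 of 23 trophic, 21 of 22 purinergic, 22 of 24 niche, 19 of 20 general neuronal, 14 of 22 transmitter, 9 of 18 receptor, 15 of 17 enteroendocrine, 8 of 10 tuft, 2 of 10 mast cell and 8 of 13 mitochondrial genes, and every member of the other lists. Values of single genes are given as lowest to highest CPM over the 6 libraries, submucosal first, and fold changes are log2 of submucosal over myenteric with the SE.

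**Figure D2:**
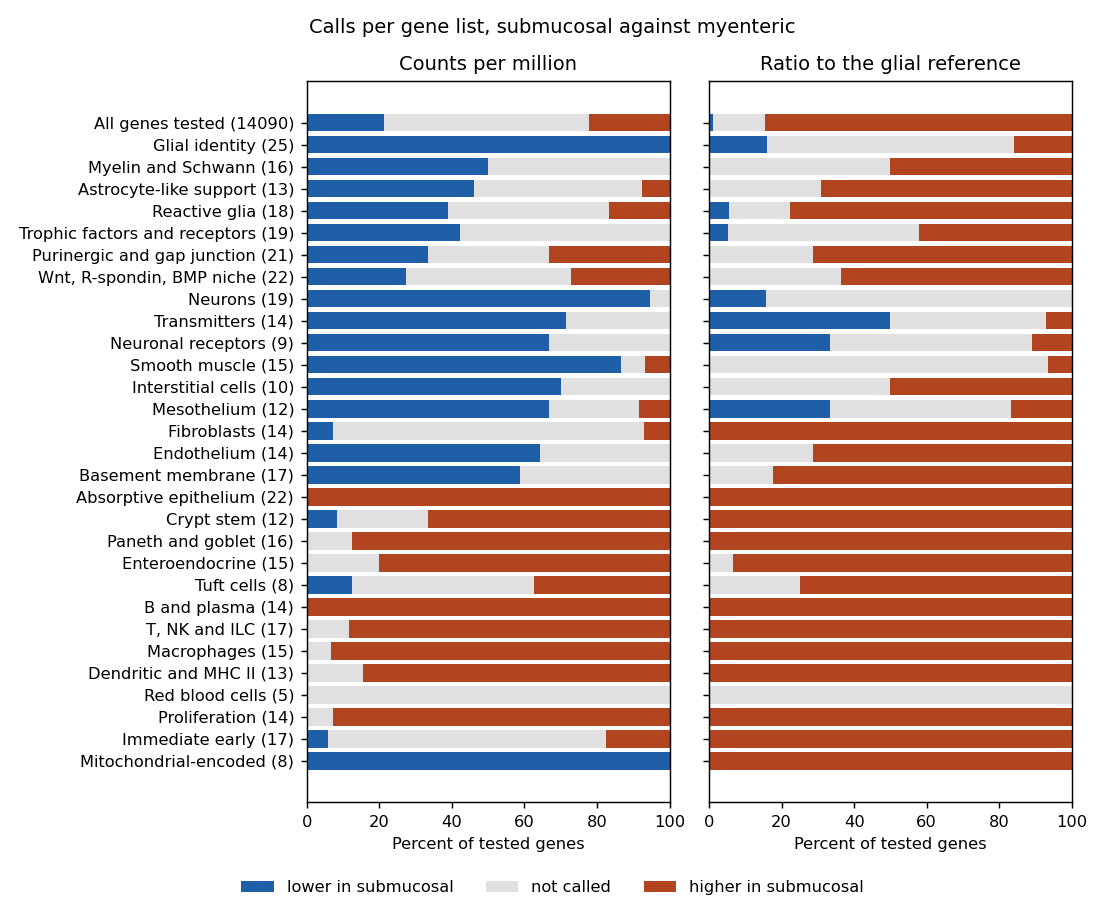
Percent of the tested genes of each list (number in parentheses) that were called lower, not called or called higher in the submucosal libraries, by CPM (left) and by the ratio to the glial reference (right). The top bar gives all 14090 genes, of which 22.3% were higher and 21.2% lower in CPM and 84.7% higher and 1.22% lower by the ratio.

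All 25 glial identity genes were lower in the submucosal libraries, with a median log2 fold change of -3.22 beside 0.06 for all genes, and for 24 of them the libraries did not overlap. Sox10, the transcription factor of the neural crest glial lineage, was at 11.1 to 68.8 CPM (median 42.5) in submucosal and 197 to 888 CPM (median 404) in myenteric libraries, and S100b, a calcium-binding protein of glia, at 11.9 to 94.9 CPM (median 42.8) against 371 to 604 CPM (median 438). Their log2 fold changes were -3.39 ± 0.58 (SE, adjusted p = 9.44e-05) and -3.36 ± 0.40 (adjusted p = 2.5e-06), so that these defining genes differed by a similar factor. The smallest difference of the list was that of Zeb2, a zinc finger repressor, at -1.32 ± 0.22 (SE, adjusted p = 7.77e-05). It was followed by Erbb3, the neuregulin receptor, at -1.55 ± 0.48 (adjusted p = 0.0121), the one gene of the list whose libraries overlapped.

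Gpr37, Col28a1 and Gfap were among the glial genes with the larger differences. Gpr37, an orphan receptor of glia (GRCm38 chromosome 6, 25665878 to 25690729), had no read in any submucosal library and 7.71 to 52.5 CPM (median 15.9) in the myenteric libraries. Against the floor of 3 counts per library it was at least 36.4-fold lower (adjusted p = 0.000217). Its relative Gpr37l1 was present in both, at 36.9 to 154 CPM (median 85.4) and 585 to 2163 CPM (median 1129) (log2 fold change -3.80 ± 0.54, adjusted p = 1.36e-05). The intermediate filament gene Gfap (chromosome 11, 102887336 to 102900912) was at 6.19 to 21.6 CPM (median 13.1) against 221 to 433 CPM (median 371), a log2 fold change of -4.71 ± 0.46 (SE, adjusted p = 3.48e-07). Col28a1, a collagen of peripheral glia, fell from 10.1 to 49.4 CPM (median 22.7) in myenteric to 0 to 1.85 CPM (median 0.557) in submucosal libraries (log2 fold change -5.17 ± 0.78, adjusted p = 2.58e-05). For Gpr37, Gpr37l1, Gfap and Col28a1 the submucosal libraries all lay below the myenteric ones. Ptprz1, a receptor phosphatase, was also lower, at 8.17 to 50.4 CPM (median 24.4) against 168 to 540.5 CPM (median 321) (log2 fold change -3.64 ± 0.52, adjusted p = 1.42e-05). Without submucosal replicate 4, Col28a1 was at -5.86 by CPM and at -3.22 by the ratio to the glial reference described above.

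Relative to the glial reference the 19 identity genes outside the reference had a median of -0.25 beside 3.25 for all genes. Of these 19, 12 did not pass the test, 4 were lower and 3 were higher. Gfap was lower at -1.77 ± 0.41 (adjusted p = 0.00035) and Gpr37 remained without a submucosal read (adjusted p = 0.000378). Col28a1 was lower at -1.81 ± 0.80 (adjusted p = 0.0369), a call lost without submucosal replicate 1, 2, 3 or 6 or myenteric replicate 3 or 4 (adjusted p up to 0.116). Ptprz1 was lower at -0.73 ± 0.32 (adjusted p = 0.0382), and this was lost in 9 of 12 fits that left out 1 library, the exceptions being submucosal replicates 2 and 4 and myenteric replicate 1 (adjusted p up to 0.0746). With myenteric replicate 3 or 4 or submucosal replicate 1 or 3 left out, 2 instead of 4 were lower. Zeb2 was higher relative to the reference (1.90 ± 0.46, adjusted p = 0.000452), and so was Cnp, an enzyme of myelinating and other glia (1.51 ± 0.44, adjusted p = 0.00289). Entpd2, the ATP-degrading enzyme of enteric glia, was higher at 0.94 ± 0.38 (adjusted p = 0.0246), which was lost without submucosal replicate 2 or 5 or myenteric replicate 1 (adjusted p up to 0.0797). In male libraries alone Zeb2 (0.96, adjusted p = 0.191), Cnp (0.32, adjusted p = 0.649), Ptprz1 and Entpd2 were not called by the ratio. In female libraries alone Gfap (-1.40, adjusted p = 0.0538), Col28a1 (-0.95, adjusted p = 0.431), Ptprz1 and Entpd2 were not. Macrophages and other immune cells, whose markers were higher in the submucosal libraries, also transcribe Zeb2, and their part in its ratio was not tested. In the plot of the identity genes most open points of the ratio lie near 0.

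**Figure D3:**
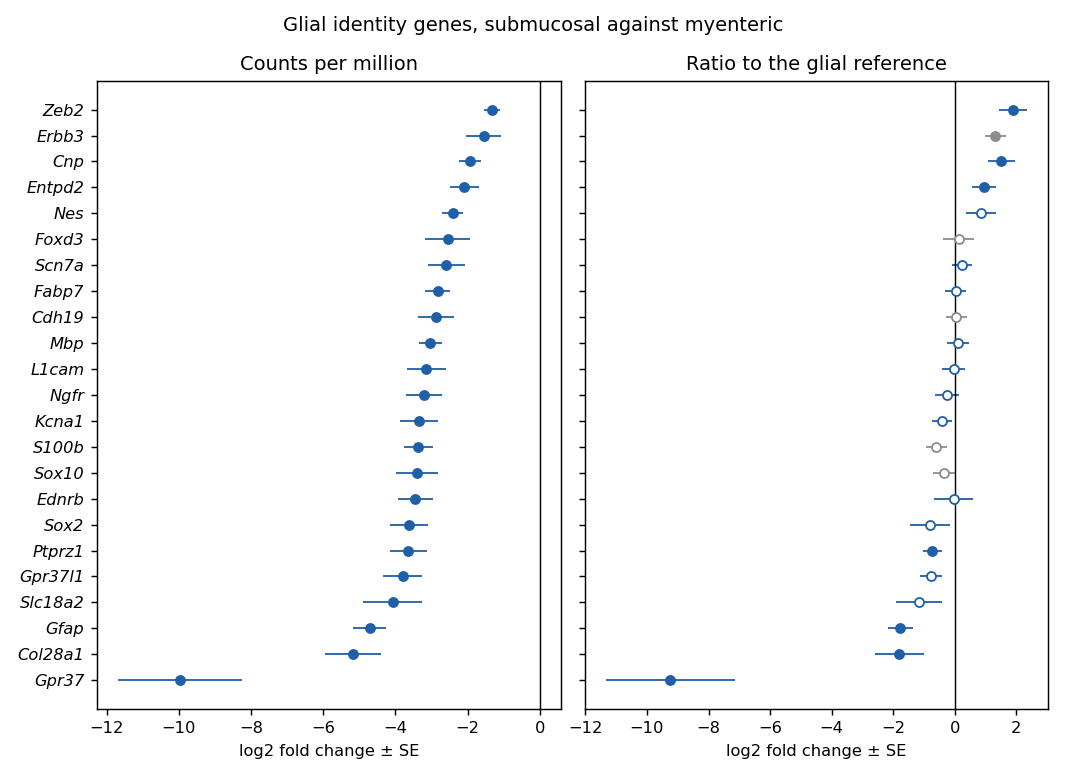
Log2 fold change (submucosal against myenteric, ± SE) of 23 of the 25 glial identity genes by CPM (left) and by the ratio to the glial reference (right), filled where the adjusted p was under 0.05 and grey for genes of the reference, whose ratio is no result. By CPM all 23 lie below 0, and by the ratio Gpr37, Col28a1, Gfap and Ptprz1 are filled below 0.

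Myelin and Schwann cell genes split in a pattern of 8 lower, 0 higher and 8 not called of 16 tested, with a median of -2.42. Pmp22, a peripheral myelin protein, was at 81.3 to 325 CPM (median 153) against 566 to 1317 CPM (median 743) (log2 fold change -2.30 ± 0.35, adjusted p = 2.57e-05), and Mbp, myelin basic protein, at 62.6 to 133 CPM (median 117) against 628 to 1194 CPM (median 943) (log2 fold change -3.03 ± 0.32, adjusted p = 6.44e-07). Neither overlapped between the groups. Relative to the reference the median was 0.72, and 8 of 16 were higher and 0 lower. By the ratio 6 were higher and 1 lower without submucosal replicate 4, and by CPM 1 was higher without myenteric replicate 5 or 6.

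Among 13 tested genes for astrocyte-like support of neurons, 6 were lower and 1 was higher, with a median of -1.45. Atp1b2, a subunit of the glial sodium pump, was at 6.11 to 57.0 CPM (median 26.9) against 161 to 434 CPM (median 307) (log2 fold change -3.48 ± 0.46, adjusted p = 6.47e-06), and Sparcl1, a secreted synapse-organising protein, at 16.9 to 361 CPM (median 151) against 569.6 to 1136 CPM (median 705) (log2 fold change -2.17 ± 0.45, adjusted p = 0.000535). Both groups were apart for these genes. Apoe, a lipid carrier that macrophages also make, was at 3254 to 18213 CPM (median 10494) against 4542 to 10339.5 CPM (median 6927) and did not pass the test (log2 fold change 0.56 ± 0.36, adjusted p = 0.222). The higher gene was Glul, glutamine synthetase, at 0.81 ± 0.31 (adjusted p = 0.0383), and its call was lost without myenteric replicate 3, 4 or 5 or submucosal replicate 2, 3 or 5 (adjusted p up to 0.102). By the ratio the median was 2.01 with 9 genes higher and 0 lower, and without submucosal replicate 4 the number higher was 5.

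Genes of reactive glia, a state defined in injured brain, gave 7 lower and 3 higher of 18, with a median of -0.75. Vim, an intermediate filament of glia and mesenchyme, was at 554 to 994 CPM (median 698) against 2355 to 3353 CPM (median 3001) (log2 fold change -2.02 ± 0.20, adjusted p = 3.54e-07). S1pr3, a sphingosine phosphate receptor, fell by 4.02 on the log2 scale (5.03 to 41.2 CPM (median 16.3) against 155 to 498 CPM (median 367), adjusted p = 3.67e-06), and Steap4, a metalloreductase, fell by 4.71 (adjusted p = 2.52e-05). C4b, a complement component, was lower at -1.55 ± 0.40 (adjusted p = 0.00328), although its libraries overlapped. The 3 higher genes have known roles in immune or epithelial cells too. Psmb8, a subunit of the immunoproteasome, was at 387 to 819.8 CPM (median 639.9) against 212 to 301 CPM (median 244) (log2 fold change 1.34 ± 0.27, adjusted p = 0.000471) with no overlap. Cd44, the hyaluronan receptor, was at 219 to 646 CPM (median 482) against 149 to 232 CPM (median 184) (log2 fold change 1.30 ± 0.24, adjusted p = 0.000163), and Aspg, an asparaginase, had no read in the myenteric libraries and was at least 3.74-fold higher (adjusted p = 0.00437). On the ratio scale 14 of 18 were higher and 1, Gfap, was lower, with a median of 2.47. Without submucosal replicate 4 these counts were 13 and 2. Macrophage and lymphocyte markers moved with the 3 higher genes, and their part in the result was not tested.

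The trophic ligands and receptors were 8 lower and 0 higher of 19 tested, with a median of -1.50. Gfra1, the co-receptor of the glial cell line-derived neurotrophic factor GDNF (chromosome 19, 58235604 to 58455909), was at 11.3 to 52.5 CPM (median 30.3) against 511 to 879 CPM (median 705) and did not overlap (log2 fold change -4.40 ± 0.46, adjusted p = 5.97e-07). Gfra2, the co-receptor of neurturin, was at 10.9 to 46.2 CPM (median 23.2) against 139 to 443 CPM (median 288) (log2 fold change -3.44 ± 0.49, adjusted p = 1.36e-05). For Gfra3, the co-receptor of artemin, the groups overlapped at 18.8 to 83.9 CPM (median 37.4) against 30.1 to 143 CPM (median 50.5) and the test was not passed (log2 fold change -0.49 ± 0.49, adjusted p = 0.436). Among the signalling partners, Ret, the tyrosine kinase these co-receptors engage and a gene of enteric neurons, was lower at -2.39 ± 0.74 (adjusted p = 0.0123). Ednrb, the endothelin receptor of the enteric lineage, was lower at -3.45 ± 0.48 (adjusted p = 1.16e-05), and Nrg1, a ligand of ErbB receptors, at -2.61 ± 0.79 (adjusted p = 0.0106). Ngfr, the low-affinity neurotrophin receptor, was at 6.72 to 41.3 CPM (median 20.3) against 126 to 288 CPM (median 194) (log2 fold change -3.21 ± 0.50, adjusted p = 3.34e-05).

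Relative to the glial reference the co-receptors parted. Gfra1 was lower at -1.47 ± 0.35 (adjusted p = 0.000405), the only member of the trophic list on that side. Gfra3 was higher by 2.49 ± 0.42 (adjusted p = 9.89e-06), which lies below the median of 3.25 of all genes. In all, 8 of 19 were higher, beside 84.7% of all genes, and the median was 1.32. Gfra1 is also transcribed by enteric neurons, whose markers were lower too, and their part in its ratio was not tested.

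Purinergic and gap junction genes gave 7 higher, 7 lower and 7 not called of 21, with a median of 0.54. Of the enzymes that degrade extracellular ATP, Entpd2 was lower at 21.4 to 103 CPM (median 42.1) against 139 to 255 CPM (median 234) (log2 fold change -2.09 ± 0.41, adjusted p = 0.000318). Entpd1, known from macrophages, lymphocytes and endothelium, was higher at 54.4 to 197 CPM (median 146) against 37.4 to 74.5 CPM (median 57.5) (log2 fold change 1.31 ± 0.28, adjusted p = 0.000681). Thus these 2 ectonucleotidases had opposite signs by CPM, and a further one, Entpd3, was lower. Relative to the glial reference Entpd2 was on the higher side. Among the ATP-gated channels, P2rx4 was higher (1.11 ± 0.24, adjusted p = 0.000853) and P2rx2, a subunit of enteric neurons, was lower (-4.41 ± 1.04, adjusted p = 0.00172, and -5.68 without submucosal replicate 6). P2ry14, a receptor for UDP sugars, was at 46.4 to 138 CPM (median 81.4) against 0 to 17.4 CPM (median 8.19) with no overlap (log2 fold change 3.31 ± 0.58, adjusted p = 0.000134). Gja1, connexin 43, through which glia are coupled, was lower at 4.31 to 51.4 CPM (median 15.8) against 41.2 to 159 CPM (median 69.2) (log2 fold change -1.77 ± 0.46, adjusted p = 0.00364), and 1 or more of its libraries overlapped. By the ratio 15 of 21 were higher and 0 lower, with a median of 3.76. Without submucosal replicate 6, 1 was lower by the ratio.

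For Wnt, R-spondin, BMP and EGF family genes of the epithelial niche, 6 were higher and 6 lower of 22, with a median of -0.76. The lower ones included Sfrp1, a secreted Wnt antagonist, at 120.5 to 703 CPM (median 184) against 628 to 1079 CPM (median 744) (log2 fold change -1.57 ± 0.38, adjusted p = 0.00229), and Wnt5a, a non-canonical ligand, at 1.36 to 8.04 CPM (median 2.10) against 21.4 to 64.3 CPM (median 35.4) (log2 fold change -3.39 ± 0.45, adjusted p = 7.21e-06). On the higher side stood Bmp2 at 20.5 to 43.1 CPM (median 29.9) against 4.45 to 20.3 CPM (median 8.08) (log2 fold change 1.52 ± 0.41, adjusted p = 0.00466). Wnt3, the ligand Paneth cells make, and Ereg, an EGF receptor ligand, had no read in any myenteric library. They were at least 6.55-fold (adjusted p = 0.000338) and at least 22.2-fold higher (adjusted p = 0.000255). Without submucosal replicate 2 the list counted 3 higher and 9 lower. Relative to the reference 14 of 22 were higher and 0 lower, with a median of 2.44. Without submucosal replicate 4, 12 were higher and 1 lower by the ratio. The bound of Ereg was 12.7-fold without submucosal replicate 2.

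Genes of all neurons were lower for 18 of 19 tested and higher for 0, with a median of -3.92, and 16 did not overlap. Prph, the intermediate filament peripherin of peripheral neurons, was at 7.64 to 28.2 CPM (median 17.2) against 82.5 to 482 CPM (median 253) (log2 fold change -3.97 ± 0.51, adjusted p = 4.68e-06). Stmn2, a microtubule regulator of axons, was at 17.1 to 40.5 CPM (median 20.8) against 165 to 543 CPM (median 265) (log2 fold change -3.60 ± 0.39, adjusted p = 8.88e-07), and Snap25, a vesicle fusion protein, at 8.96 to 26.9 CPM (median 18.5) against 123 to 466 CPM (median 216) (log2 fold change -3.74 ± 0.51, adjusted p = 8.46e-06). Gap43, a growth cone protein, was lower at -2.85 ± 0.35 (adjusted p = 3.01e-06). The exception was Nefm, a neurofilament, which did not pass the test. By the ratio the median of the list was -0.95, with 3 genes lower and 0 higher. One of the 3 was Ina, a neurofilament partner (-2.95 ± 1.11, adjusted p = 0.0181). Without myenteric replicate 6 or submucosal replicate 6, the count by the ratio was 6 lower. It was 8 lower in male and 0 lower in female libraries alone, where 15 and 17 were lower by CPM, and Ina was at -4.04 without submucosal replicate 5 and not called in female libraries alone (adjusted p = 0.245).

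Transmitter genes, of which 14 of 22 listed passed the filter, were 10 lower and 0 higher, with a median of -5.09. Nos1, the nitric oxide synthase of inhibitory motor neurons, was at 0.132 to 2.33 CPM (median 0.391) against 19.4 to 126 CPM (median 56.4) (log2 fold change -5.96 ± 0.82, adjusted p = 9.97e-06). Gal, the neuropeptide galanin, was at 1.25 to 7.91 CPM (median 2.96) against 60.2 to 899.9 CPM (median 161) (log2 fold change -6.76 ± 0.85, adjusted p = 3.72e-06), and Calcb, a calcitonin gene-related peptide, at 0.566 to 2.16 CPM (median 0.916) against 3.14 to 358 CPM (median 54.2) (log2 fold change -6.69 ± 1.07, adjusted p = 4.82e-05). None of these 3 overlapped. The choline transporter gene Slc5a7 held 5 reads in all submucosal libraries together, against 15.4 to 67.4 CPM (median 34.6) in the myenteric ones (log2 fold change -7.65 ± 1.06, adjusted p = 1.06e-05). Penk, which encodes enkephalins, was lower at -3.42 ± 0.62 (adjusted p = 0.000179) with some overlap. Single libraries moved these sizes, to -5.92 for Calcb without myenteric replicate 1, to -8.53 for Slc5a7 without submucosal replicate 6 and to -2.78 for Penk without myenteric replicate 5.

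Chat, Vip, Tac1 and Npy did not pass. Vip, the peptide of secretomotor neurons, was at 8.70 to 386 CPM (median 10.6) in submucosal and 8.85 to 696 CPM (median 55.5) in myenteric libraries (log2 fold change -1.16 ± 1.04, adjusted p = 0.387). Submucosal replicate 6 alone held the high value, and without it Vip was lower at -3.94 (adjusted p = 0.00224). Tac1, the precursor of substance P, was at 0 to 417 CPM (median 16.6) against 32.8 to 787 CPM (median 198) (log2 fold change -1.81 ± 1.12, adjusted p = 0.2), and it was lower at -4.12 (adjusted p = 0.0054) without submucosal replicate 3. Each peptide thus had 1 submucosal library far above the others' median. Relative to the reference 7 of 14 were lower and 1, Npy, was higher, with a median of -2.32. Among them were Slc18a3, the vesicular acetylcholine transporter (-4.43 ± 1.39, adjusted p = 0.00549), Nos1 (-3.32 ± 0.93, adjusted p = 0.00198) and Gal (-3.92 ± 0.74, adjusted p = 3.24e-05). Slc18a3 was at -10.28 without submucosal replicate 6 and Gal at -3.21 without myenteric replicate 2. Without myenteric replicate 4, 6 were lower and 2 higher by the ratio. In female libraries alone 4 of 16 were lower and 2 higher by the ratio, and Slc18a3 was not called (-3.37, adjusted p = 0.057).

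Neuronal receptors gave 6 lower and 0 higher of 9 tested, with a median of -4.96. Tacr3, the neurokinin 3 receptor (chromosome 3, 134829007 to 134934579), had no submucosal read and 28.5 to 115 CPM (median 52.4) in myenteric libraries, and was at least 97.9-fold lower (adjusted p = 5.53e-05). Cnr1, the cannabinoid receptor of neurons, was at 0.378 to 2.80 CPM (median 1.30) against 21.8 to 119 CPM (median 84.9) (log2 fold change -5.81 ± 0.81, adjusted p = 1.13e-05), and the nicotinic subunit Chrna3 at 0 to 16.7 CPM (median 0) against 49.8 to 231 CPM (median 68.8) (log2 fold change -4.96 ± 1.21, adjusted p = 0.00225). For Htr3a, a serotonin-gated channel subunit, the groups overlapped at 0 to 7.60 CPM (median 0.737) against 3.00 to 179 CPM (median 92.6) (log2 fold change -5.44 ± 1.26, adjusted p = 0.00147). Without submucosal replicate 6, which alone held the high Chrna3 value, Chrna3 was at -10.51 and Htr3a at -6.59. By the ratio 3 were lower, namely Tacr3, Cnr1 (-3.13 ± 0.84, adjusted p = 0.00137) and Oprk1, the kappa opioid receptor (-4.01 ± 1.42, adjusted p = 0.0123), and 1 was higher, with a median of -2.06. The number lower was 5 without submucosal replicate 6, and 2 instead of 1 were higher without myenteric replicate 4 or submucosal replicate 3. Oprk1 was at -9.64 without submucosal replicate 3 and at -3.23 without myenteric replicate 4, and it was not called in male libraries alone (-1.75, adjusted p = 0.431). Cnr1 was not called by the ratio in female libraries alone (-2.38, adjusted p = 0.107). By the ratio 6 of 13 receptors were lower in male libraries alone, and 2 of 13 were lower and 1 higher in female libraries alone.

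Smooth muscle genes were lower for 13 of 15 and higher for 1, with a median of -2.95. Actg2, the enteric gamma actin, was at 7.36 to 107 CPM (median 35.8) against 298 to 1750.2 CPM (median 628) (log2 fold change -4.24 ± 0.63, adjusted p = 2.28e-05), and Des, the filament desmin, at 5.75 to 84.5 CPM (median 47.4) against 232 to 1487 CPM (median 507) (log2 fold change -3.78 ± 0.65, adjusted p = 9.31e-05). Mylk, myosin light chain kinase, was lower at -3.40 ± 0.54 (adjusted p = 4.57e-05). All 3 kept the groups apart. The higher gene was Hhip, a hedgehog-binding protein, at 3.22 ± 1.13 (adjusted p = 0.0247), which was lost without submucosal replicate 4 (adjusted p = 0.0649). By the ratio 1 gene was higher and 0 lower, with a median of -0.19. Single libraries moved these ratio counts, to 4 lower without submucosal replicate 4 and to 4 higher without myenteric replicate 2. The ratio counts were 1 higher and 5 lower in male and 7 higher and 0 lower in female libraries alone, where the offset of all genes differed too, and by CPM they were 0 higher and 9 lower and 1 higher and 8 lower. Mylk was at -2.76 by CPM without myenteric replicate 2, and Hhip at 9.23 without myenteric replicate 1.

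Interstitial cell genes were 7 lower and 0 higher of 10, with a median of -1.89. Ano1, the chloride channel of pacemaker cells, was at 0.36 to 21.4 CPM (median 5.51) against 9.42 to 50.3 CPM (median 46.5) (log2 fold change -2.31 ± 0.71, adjusted p = 0.0114), with overlap, and Gucy1a1, a guanylate cyclase subunit of fibroblast-like interstitial cells, was lower at -1.63 ± 0.34 (adjusted p = 0.00057). Kit, the receptor of pacemaker and mast cells, did not pass at 4.48 to 22.3 CPM (median 13.2) against 0.303 to 26.9 CPM (median 15.0) (log2 fold change 0.10 ± 0.70, adjusted p = 0.922). By the ratio 5 were higher and 0 lower, with a median of 1.12, and in male libraries alone 0 were higher.

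Of 12 mesothelial genes, 8 were lower and 1 was higher, with a median of -4.19. Without myenteric replicate 1 these counts were 7 and 2. Msln, mesothelin, had no submucosal read against 4.57 to 168 CPM (median 23.1) in myenteric libraries and was at least 83.4-fold lower (adjusted p = 0.00101), or at least 46.1-fold without myenteric replicate 1. Upk3b, a membrane protein of mesothelium, had 2 submucosal reads in total against 4.14 to 159 CPM (median 39.4), a myenteric to submucosal ratio of 969.8 (exact 95% interval 268 to 8014), or 573 without myenteric replicate 1. Both reads lay in submucosal replicate 6, without which the group held none. Gpm6a, a neuronal and mesothelial membrane protein, was lower at -2.89 ± 0.61 (adjusted p = 0.000712). Krt19, which intestinal epithelium also makes, was the one on the higher side (309 to 1653 CPM (median 433) against 17.8 to 161 CPM (median 24.1), log2 fold change 3.58 ± 0.92, adjusted p = 0.00337). With Krt19 included, the list summed to 427 to 1845 CPM (median 556) in submucosal and 138 to 1519.5 CPM (median 309) in myenteric libraries, although the defining Msln was at 0 in the former. By the ratio 4 were lower and 2 higher, with a median of -1.44. In female libraries alone 1 was lower and 3 were higher by the ratio. Krt19 was at 4.24 by CPM without myenteric replicate 1.

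Fibroblast genes mostly did not pass the test, with 1 higher, 1 lower and 12 not called of 14 and a median of 0.13. Col3a1, a fibrillar collagen, was at 454 to 1889 CPM (median 993) against 758 to 1991 CPM (median 982) (log2 fold change -0.17 ± 0.35, adjusted p = 0.732). Dcn, decorin, was higher at 1.10 ± 0.38 (adjusted p = 0.0219), which was lost without submucosal replicate 2 or 5 (adjusted p up to 0.0691). Gsn, gelsolin, was lower at -1.04 ± 0.37 (adjusted p = 0.0256), which was lost without submucosal replicate 1, 3 or 4 or myenteric replicate 3 or 6 (adjusted p up to 0.0627). Without submucosal replicate 3 the list counted 3 higher and 0 lower, and without submucosal replicate 1 it counted 2 higher and 0 lower. By the ratio all 14 were higher, with a median of 3.42 that lies near the 3.25 of all genes.

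Endothelial genes were 9 lower and 0 higher of 14, with a median of -1.77, and Eng, endoglin, was at 54.2 to 177 CPM (median 113) against 211 to 610.4 CPM (median 341) (log2 fold change -1.75 ± 0.35, adjusted p = 0.000384). Without myenteric replicate 6 the list counted 8 lower and 2 higher, and without myenteric replicate 3 it counted 8 lower and 1 higher. Without submucosal replicate 3 there was 1 higher. The list counted 2 lower and 1 higher in male libraries alone, and the same numbers in female libraries alone. Basement membrane genes were 10 lower and 0 higher of 17, with a median of -1.72. They included Nid1, nidogen, at 56.5 to 137 CPM (median 79.8) against 300.4 to 811 CPM (median 413) (log2 fold change -2.51 ± 0.39, adjusted p = 3.29e-05), and Col4a1, a chain of type IV collagen, at 65.4 to 182 CPM (median 109) against 209 to 759 CPM (median 377) (log2 fold change -1.88 ± 0.36, adjusted p = 0.000319). By the ratio 10 of 14 endothelial and 14 of 17 basement membrane genes were higher and 0 lower, with medians of 1.80 and 1.50. In male libraries alone 5 endothelial genes and 1 basement membrane gene were higher by the ratio, and in female libraries alone 10 and 13, beside the lower share of all genes in the male fit given above.

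Genes of absorptive epithelium were all higher in the submucosal libraries, 22 of 22, with a median of 4.77 and no overlap for 18. Krt8, a keratin, was at 360.3 to 1456 CPM (median 396) against 2.71 to 53.4 CPM (median 10.4) (log2 fold change 5.10 ± 1.09, adjusted p = 0.000784), Epcam, the epithelial adhesion molecule, at 288 to 1537 CPM (median 499) against 0 to 56.6 CPM (median 3.90) (log2 fold change 5.32 ± 1.38, adjusted p = 0.0035), and Cldn7, a tight junction protein, at 175 to 909 CPM (median 302) against 0 to 33.8 CPM (median 1.57) (log2 fold change 5.76 ± 1.55, adjusted p = 0.0047). Paneth and goblet genes were higher for 14 of 16, with a median of 6.42 and 0 lower. Defa24, an antimicrobial alpha-defensin of Paneth cells, was at 781 to 27971 CPM (median 6645) against 0.445 to 216 CPM (median 36.7) (log2 fold change 7.28 ± 1.39, adjusted p = 0.000278). Lyz1, the Paneth lysozyme, was higher at 7.66 ± 1.30 (adjusted p = 8.68e-05), and Itln1, intelectin, at 7.00 ± 1.20 (adjusted p = 9.88e-05). Agr2, a goblet cell chaperone, was at 133 to 1692 CPM (median 202) against 0 to 49.3 CPM (median 1.49) (log2 fold change 5.34 ± 1.54, adjusted p = 0.00758). Alpha-defensins have near-identical copies and Lyz1 resembles Lyz2, so how reads were divided among them is uncertain. The goblet markers Muc2 and Zg16 did not pass. Without myenteric replicate 2 Cldn7 was at 7.41, Epcam at 6.26, Krt8 at 5.86, Defa24 at 8.40, Agr2 at 6.67 and Itln1 at 7.79. Without submucosal replicate 1 Defa24 was at 6.52, Lyz1 at 7.01 and Agr2 at 4.41.

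Crypt stem cell genes were 8 higher and 1 lower of 12, with a median of 2.69. Olfm4, which marks small intestinal stem cells, was at 526 to 3233 CPM (median 1323) against 0 to 23.3 CPM (median 2.82) (log2 fold change 7.54 ± 1.58, adjusted p = 0.000633), and Slc12a2, a cotransporter of crypts, at 1.40 ± 0.43 (adjusted p = 0.0114). The lower one, Smoc2, a matrix protein that mesenchyme also makes, was at -1.39 ± 0.47 (adjusted p = 0.0198), which was lost without myenteric replicate 2 (adjusted p = 0.054). Enteroendocrine genes were 12 higher and 0 lower of 15, with a median of 7.70. Gcg, proglucagon (chromosome 2, 62474530 to 62483650), was at 123 to 573 CPM (median 224) in submucosal libraries and had no read in the others (adjusted p = 0.00196). Reg4, a secreted lectin, was at 12.9 to 322 CPM (median 93.6) against 0 to 3.63 CPM (median 0.143) (log2 fold change 7.32 ± 1.61, adjusted p = 0.000951), and Sst, somatostatin, which some submucosal neurons also make, at 45.0 to 806 CPM (median 187) against 7.79 to 31.4 CPM (median 11.2) (log2 fold change 4.16 ± 0.63, adjusted p = 2.48e-05). Chgb, a granule protein of endocrine cells and neurons, did not pass at 7.38 to 974 CPM (median 240.2) against 31.3 to 190.4 CPM (median 49.0) (log2 fold change 2.18 ± 1.01, adjusted p = 0.0837) but was higher without submucosal replicate 4 (2.72, adjusted p = 0.0465). Olfm4 was at 8.27 without myenteric replicate 1, Reg4 at 8.97 without myenteric replicate 3 and Sst at 3.33 without submucosal replicate 1.

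Tuft cell genes were mixed, with 3 higher, 1 lower and 4 not called of 8 and a median of 1.99. Rgs13, a G protein regulator of tuft and B cells, was at 15.1 to 51.4 CPM (median 31.5) against 0 to 3.19 CPM (median 0) (log2 fold change 6.02 ± 1.24, adjusted p = 0.000803), and Ptgs1, cyclooxygenase 1, was higher at 2.78 ± 0.35 (adjusted p = 4.25e-06). Dclk1, the usual tuft marker, which neurons and glia also express, was lower at 8.99 to 29.6 CPM (median 19.2) against 46.1 to 97.9 CPM (median 78.7) (log2 fold change -2.07 ± 0.34, adjusted p = 5.45e-05), and without myenteric replicate 6 the list had 2 lower. Rgs13 was at 10.51 without myenteric replicate 2, which held the highest myenteric value. With a myenteric median of 0, this size depends on the prior count. Relative to the glial reference, 22 of 22 absorptive, 16 of 16 Paneth and goblet, 12 of 12 stem, 14 of 15 enteroendocrine and 6 of 8 tuft genes were higher and 0 lower. Neither Dclk1 nor Smoc2 was on the lower side by that measure.

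Every one of 14 B and plasma cell genes was higher in the submucosal libraries, with a median of 8.08 and no overlap for any. Jchain, the joining chain of secreted IgA and IgM, was at 13834 to 131176 CPM (median 30054) against 2.88 to 1081 CPM (median 11.8) (log2 fold change 7.74 ± 1.58, adjusted p = 0.000519). Mzb1, a chaperone of antibody secretion, was at 178 to 1198 CPM (median 408) against 0 to 12.3 CPM (median 0) (log2 fold change 8.02 ± 1.35, adjusted p = 8.07e-05), and Cd79a, a B cell receptor subunit, at 71.4 to 531 CPM (median 358) against 0 to 2.94 CPM (median 0.263) (log2 fold change 9.05 ± 1.08, adjusted p = 2.35e-06). Cd79b, its partner, was higher at 7.02 ± 1.05 (adjusted p = 2.29e-05). The high myenteric Jchain came from replicate 2, which also had the highest myenteric sum of the list. Without it Jchain was at 10.81, Mzb1 at 14.43 and Cd79a at 10.46. The size for Mzb1, whose myenteric median was 0, depends on the prior count. Cd79b was at 8.01 without myenteric replicate 4, and Jchain at 6.97 without submucosal replicate 3.

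T, NK and innate lymphoid genes were 15 higher and 0 lower of 17, with a median of 6.80. Cd3g, a T cell receptor subunit, was at 46.4 to 118 CPM (median 95.0) against 0 to 1.70 CPM (median 0.705) (log2 fold change 6.80 ± 1.04, adjusted p = 6.01e-05). Gzma, a granzyme of cytotoxic and intraepithelial lymphocytes, was at 237 to 856 CPM (median 521) against 0 to 3.92 CPM (median 0.214) (log2 fold change 9.49 ± 1.14, adjusted p = 2.52e-06), and Gzmb, another granzyme, at 8.60 ± 1.14 (adjusted p = 6.23e-06). Thy1, a surface protein of T cells and neurons, was one of the 2 that did not pass. Gzma was at 11.37 without myenteric replicate 2 and Gzmb at 11.27 without myenteric replicate 4.

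Macrophage genes were 14 higher and 0 lower of 15, with a median of 2.74, and 6 did not overlap. C1qb and C1qa, complement subunits of tissue macrophages, were at 612 to 3378 CPM (median 2022) against 53.8 to 565 CPM (median 212) (log2 fold change 2.99 ± 0.69, adjusted p = 0.00146) and at 3.12 ± 0.76 (adjusted p = 0.00219). Lyz2, the myeloid lysozyme, was at 1383 to 9318 CPM (median 5802) against 93.0 to 1364 CPM (median 370.0) (log2 fold change 3.48 ± 0.71, adjusted p = 0.000495). Without myenteric replicate 4 Lyz2 was at 4.10. Genes of dendritic cells and of MHC class II, with which antigens are presented, were 11 higher and 0 lower of 13, with a median of 3.38. Cd74, the invariant chain, was at 4059 to 20581 CPM (median 14388) against 171 to 2370.3 CPM (median 1073) (log2 fold change 3.42 ± 0.69, adjusted p = 0.000462), and H2-Ab1, a class II chain, at 3110.3 to 13299.6 CPM (median 9334) against 291 to 2237 CPM (median 963) (log2 fold change 3.12 ± 0.65, adjusted p = 0.000631). Macrophage RNA was thus present in the myenteric libraries too, whereas T cell genes there were near the floor. By the ratio all 14 B and plasma, 17 T and NK, 15 macrophage and 13 dendritic cell and class II genes were higher. The 2 of the last list that did not pass by CPM were Clec9a and Zbtb46, both known from dendritic cells.

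Proliferation genes were 13 higher and 0 lower of 14, with a median of 3.82. Ccna2, cyclin A2, was at 72.7 to 114 CPM (median 96.0) against 8.48 to 17.6 CPM (median 15.1) (log2 fold change 2.73 ± 0.63, adjusted p = 0.00145), Pcna, the replication clamp, at 59.0 to 90.8 CPM (median 81.4) against 25.4 to 34.2 CPM (median 29.9) (log2 fold change 1.36 ± 0.22, adjusted p = 5.94e-05), and Top2a, a topoisomerase, at 3.48 ± 1.07 (adjusted p = 0.0116). None of these overlapped, and by the ratio all 14 were higher with a median of 6.94. Stem, B and T cell markers moved with them, and their part in the result was not tested. Mitochondrial-encoded genes were lower for 8 of 8 tested of 13 listed, with a median of -1.57, and mt-Co1, a cytochrome oxidase subunit, was at 10887 to 32438 CPM (median 24419) against 32806 to 59952 CPM (median 53623) (log2 fold change -1.12 ± 0.32, adjusted p = 0.00669). By the ratio all 8 were higher, with a median of 1.48, below the 3.25 of all genes, so that the direction turned with the scale. In male libraries alone 0 and in female libraries alone 8 of the 8 tested in these fits were higher by the ratio, whose median over all genes was 2.20 and 3.94 in these fits.

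Immediate early genes, which are known to respond to tissue dissociation, were 3 higher and 1 lower of 17, with a median of 0.46. Zfp36, an mRNA decay factor, was at 268 to 1254 CPM (median 707) against 146 to 519.6 CPM (median 182) (log2 fold change 1.56 ± 0.40, adjusted p = 0.0032) and Btg2, an antiproliferative gene, at 265 to 587 CPM (median 369) against 83.3 to 233 CPM (median 169.6) (log2 fold change 1.36 ± 0.32, adjusted p = 0.00178). Nr4a1, an orphan nuclear receptor, was lower at -1.10 ± 0.40 (adjusted p = 0.0314), which was lost without submucosal replicate 1 or 5 or myenteric replicate 6 (adjusted p up to 0.15). Without myenteric replicate 6 the list counted 8 higher and 0 lower, and without submucosal replicate 3 it counted 5 higher. Without submucosal replicate 1 it counted 4 higher and 0 lower. By the ratio all 17 were higher, with a median of 3.74. Of 5 red blood cell genes 0 were called by edgeR's test (0 at an unadjusted p under 0.05) or by DESeq2 in either direction, and Hbb-bs, a haemoglobin chain with a near-identical copy, was at 40.9 to 485 CPM (median 131) against 9.59 to 1325 CPM (median 192) (log2 fold change -0.79 ± 1.14, adjusted p = 0.605). By the ratio edgeR called 0 of the 5 (2 at an unadjusted p under 0.05), with a median of 2.58, and DESeq2 called 2 higher. Without myenteric replicate 6, submucosal replicate 1 or submucosal replicate 2 the number higher by the ratio was 5, 3 or 2. Of 10 mast cell genes 2 passed the filter and 1, Hdc, was higher, while Tpsb2 and Tpsab1 had no submucosal read. By the ratio 1 was higher and 0 lower, and 2 were higher without myenteric replicate 2. The fit of female libraries alone kept 5 mast cell genes, and 5 were higher by the ratio.

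Across all genes the 12 largest differences on the higher side among genes with separate groups included many lymphocyte genes. Pou2af1, a B cell coactivator (chromosome 9, 51213708 to 51240080), was at 30.8 to 358 CPM (median 248), Fcmr, the IgM receptor, at 26.8 to 236 CPM (median 156), and Tnfrsf13c, the receptor of the survival factor BAFF, at 28.3 to 182 CPM (median 97.9). No myenteric library held a read of them. The same held for the B cell genes Fcrla (at least 121-fold, adjusted p = 3.72e-06) and Vpreb3 (at least 117-fold, adjusted p = 3.16e-05), and for Tnfrsf13c the bound was at least 174-fold (adjusted p = 5.85e-06). Of T cell and homing genes, Cd7 was at least 124-fold (adjusted p = 1.2e-05), Cxcr6, a chemokine receptor of tissue lymphocytes, at least 109-fold (adjusted p = 7.99e-06), and Cd8a at least 76.3-fold higher (adjusted p = 3.7e-05). Ccr7, the lymph node homing receptor, was at least 111-fold higher (adjusted p = 4.37e-05) and was at 0.719 to 117 CPM (median 70.3). Aoc1, the diamine oxidase of enterocytes, was at least 125-fold higher (adjusted p = 0.000269), or at least 77.7-fold without submucosal replicate 1, and Gcg and Apol7c, an apolipoprotein L gene, complete the 12. Apol7c had 2 myenteric reads against 58.2 to 235 CPM (median 184), a submucosal to myenteric ratio of 2873 (exact 95% interval 795 to 23729.6). Without myenteric replicate 2 or 4, each with 1 of these reads, the ratio was 5019.9 or 5115.

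On the lower side the 12 were Tacr3, Msln, Gpr37, Upk3b, P4ha3, Ctxn3, Hand1, Lrrn4, Col9a2, Cacng5, Slc5a7 and Nell2. Hand1, a transcription factor known from smooth muscle and visceral mesenchyme (chromosome 11, 57828705 to 57832818), had 1 submucosal read in total against 16.2 to 43.2 CPM (median 20.3), a myenteric to submucosal ratio of 768 (exact 95% interval 137 to 30354). P4ha3, a prolyl hydroxylase of collagen (chromosome 7, 100285520 to 100319699), had 2 reads against 17.7 to 71.9 CPM (median 49.6), a ratio of 758 (exact 95% interval 209 to 6261). Col9a2, a chain of type IX collagen, was at 0 to 0.974 CPM (median 0.449) against 72.5 to 225 CPM (median 129) (log2 fold change -8.19 ± 0.95, adjusted p = 1.8e-06), and Nell2, a secreted neuronal protein, at 0 to 1.44 CPM (median 0.785) against 73.8 to 169 CPM (median 121) (log2 fold change -7.41 ± 0.81, adjusted p = 8.88e-07). These genes had few or no reads in the submucosal libraries, in which Sox10 and S100b were detected. Cacng5, an AMPA receptor regulator, had 2 reads against 8.56 to 36.8 CPM (median 21.5), a ratio of 348 (exact 95% interval 96.0 to 2879.7). Lrrn4, a mesothelial and neuronal membrane protein, had a ratio of 437 (exact 95% interval 121 to 3613), and Ctxn3, a cortexin, was at least 19.6-fold lower (adjusted p = 5.94e-05). The ratio of Lrrn4 was 261 without myenteric replicate 1. The few submucosal reads of Hand1, Lrrn4 and P4ha3 lay in replicates 3, 5 and 1, and without that library no read was left. Without submucosal replicate 3 or 5, each with 1 of its reads, the ratio of Cacng5 was 635 or 581.

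Relative to the glial reference the 8 genes with the largest lower ratio were Tacr3, Msln, Gpr37, Ctxn3, Upk3b, P4ha3, Hand1 and Lrrn4. All of them also stand among the 12 above. Each had at most 2 submucosal reads, so the fitted size of its ratio depends on the prior count and is not given, and the adjusted p was 1.88e-06 for P4ha3 and 3.75e-05 for Hand1. In female libraries alone Upk3b (adjusted p = 0.108) and Lrrn4 (adjusted p = 0.375) were not called by the ratio. Markers of mesothelium, muscle and neurons moved with these genes, and their part in the ratios was not tested. The panels of single libraries show which genes kept the groups apart.

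**Figure D4:**
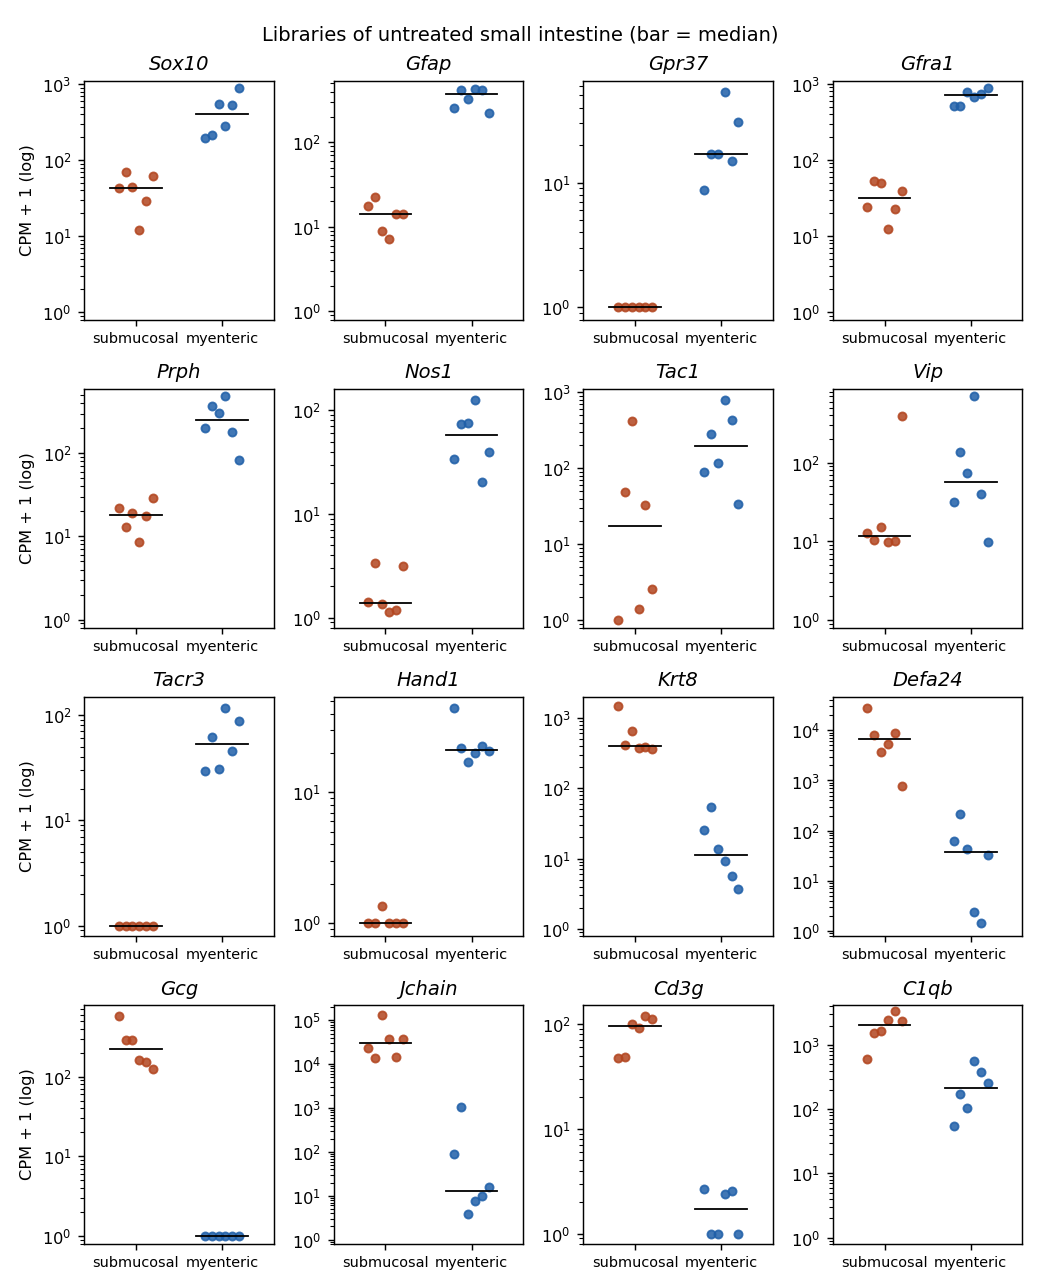
CPM + 1 (log axis) of 16 genes in each of the 6 submucosal and 6 myenteric libraries, with a bar at the median. Gpr37 and Tacr3 lie at 0 CPM in all submucosal libraries and Gcg in all myenteric libraries, while Tac1 and Vip each have a high submucosal library that overlaps the myenteric values.

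The geometric mean of the glial reference was 81.5 to 85.5 counts-per-million of the library total in the 3 male submucosal libraries and 20.7 to 46.8 in the 3 female ones, and these ranges did not overlap. Fitted in male libraries alone, 2639 genes were called and the median log2 fold change of the glial identity genes was -2.62. In female libraries alone the corresponding values were 4491 and -3.90. Whether the sexes differed in these values was not tested. In male libraries alone the genes higher by the ratio were 3 of 15 myelin, 4 of 13 astrocyte-like, 5 of 18 reactive, 2 of 20 trophic, 9 of 21 purinergic, 7 of 23 niche, 8 of 14 fibroblast, 3 of 7 tuft and 11 of 17 immediate early genes, each fewer than with all libraries, and so was the share of all genes, at 53.8%. By CPM in male libraries alone 5 of 15 macrophage and 8 of 14 proliferation genes were higher, and 4 of 8 mitochondrial, 2 of 14 endothelial, 2 of 10 interstitial, 5 of 17 basement membrane, 4 of 20 trophic, 9 of 15 smooth muscle and 5 of 12 mesothelial genes were lower. Purinergic genes were then 3 higher and 2 lower, niche genes 2 and 2, reactive genes 1 and 4, and no fibroblast or immediate early gene was called in either direction. By CPM in female libraries alone purinergic genes were 8 higher and 3 lower, niche genes 7 and 2, fibroblast genes 2 and 0, mesothelial genes 1 and 5 and astrocyte-like genes 2 and 5. Of 121 genes followed singly that were called by CPM, 26 lost the call in male libraries alone. They were Ano1, Aspg, Bmp2, Btg2, C4b, Dcn, Eng, Entpd1, Entpd2, Erbb3, Gja1, Glul and Gsn. The rest were Gucy1a1, Hhip, Jchain, Nr4a1, Nrg1, Psmb8, Ret, Rgs13, Sfrp1, Smoc2, Sparcl1, Zfp36 and mt-Co1. The call was lost in female libraries alone for 9, namely Aspg, Gja1, Glul, Gsn, Htr3a, Nrg1, P2rx2, Slc12a2 and Smoc2. Each sex has 3 libraries a plexus, and the part of this smaller number in the lower counts was not tested. When the epithelial and the immune marker levels of each library were added to the model, 0 genes were called by edgeR's test and 1151 had an unadjusted p under 0.05. The 2 covariates together explained 98.8% of the variance of the plexus label over the 12 libraries. Plexus and mucosal RNA therefore cannot be told apart in these data.

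The plexus difference of the small intestine was set against that of the colon by an interaction term. In total 168 genes were called, with 59 (0.419%) in which the difference was more positive in the small intestine and 109 (0.774%) in which it was more negative. The total by edgeR was 0 in male libraries alone (1030 at an unadjusted p under 0.05), 32 in female libraries alone, 97 without colonic submucosal replicate 2 and 106 without colonic submucosal replicate 6. The 25 genes followed singly for this term, which include those named below, all lost their call in male libraries alone and in female libraries alone, so that none of them is among the 32. Chrnb4, a nicotinic receptor subunit (chromosome 9, 55028154 to 55048779), was 1.09 ± 0.866 CPM (SD, n = 6) in submucosal and 30.3 ± 18.7 CPM (SD, n = 6) in myenteric libraries of the small intestine, and 4.84 ± 2.55 CPM (SD, n = 5) and 0.786 ± 0.66 CPM (SD, n = 5) in those of the colon (interaction -7.41 ± 1.05, adjusted p = 0.00214). Its mean was thus lower in the submucosal plexus of the small intestine and higher in that of the colon. The colonic difference alone was not tested, and 3 counts per library in colonic myenteric libraries correspond to a mean of 0.581 CPM. P4ha3 was at 4.43 ± 3.18 CPM (SD, n = 5) and 46.7 ± 29.8 CPM (SD, n = 5) in submucosal and myenteric libraries of the colon, lower in the submucosal plexus there too but by less (interaction -5.76 ± 0.99, adjusted p = 0.00681). Hapln1, a link protein of the extracellular matrix, was 0.563 ± 0.98 CPM (SD, n = 6) against 59.9 ± 20.3 CPM (SD, n = 6) in the small intestine and 31.4 ± 34.8 CPM (SD, n = 5) against 43.0 ± 27.1 CPM (SD, n = 5) in the colon (interaction -6.56 ± 1.10, adjusted p = 0.00605). P4ha3 was at -7.75 without small intestinal submucosal replicate 1. Hapln1 was at -7.65 without small intestinal submucosal replicate 3 and at -5.71 without colonic submucosal replicate 2.

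Most of the other genes with the largest terms are known from epithelium. Retnlb, a goblet cell peptide, was at 312 ± 222 CPM (SD, n = 5) in colonic submucosal and 0.532 ± 0.787 CPM (SD, n = 5) in colonic myenteric libraries, and at most 3.81 CPM in small intestinal submucosal ones (interaction -10.84 ± 1.92, adjusted p = 0.00942). Car1, a carbonic anhydrase of colonic epithelium, was at 749.9 ± 624 CPM (SD, n = 5) and 3.40 ± 4.74 CPM (SD, n = 5) in the colon and at most 6.19 CPM in small intestinal submucosal libraries (interaction -8.47 ± 1.80, adjusted p = 0.0205), a call lost without small intestinal myenteric replicate 1 (adjusted p = 0.0541). Defa24 (interaction 9.55 ± 1.86, adjusted p = 0.0169) and Cldn4, a tight junction gene (interaction 9.31 ± 1.33, adjusted p = 0.00437), were more positive in the small intestine. Cldn4 had no read in the small intestinal myenteric libraries, so the size of its term depends on the prior count. Olfm4 was more positive as well (interaction 12.02 ± 2.29, adjusted p = 0.0168), as were the defensins Defa17, Defa21 and Defa30, whose copies are uncertain. These 4 calls were lost without colonic myenteric replicate 2 (adjusted p 0.0915, 0.663, 0.145 and 0.0826). The terms were then 6.99 for Olfm4, 5.89 for Defa17, 6.75 for Defa21 and 6.20 for Defa30. Without that library Defa24 was at 7.36. With the epithelial and immune covariates Olfm4, Defa17 and Defa30 were not called (adjusted p 0.0599, 0.0922 and 0.0509). Those covariates hold the level of epithelial markers, Olfm4 and Defa17 among them, so that this fit cannot decide whether the terms hold. Retnlb was at -8.91 without small intestinal myenteric replicate 2 and at -12.47 without colonic myenteric replicate 5. Retnlb in male libraries alone was at -12.91 (adjusted p = 0.195) and Car1 at -10.74 (adjusted p = 0.248), and in female libraries alone they were at -3.90 (adjusted p = 1) and -2.16 (adjusted p = 0.94). Cd4, the T helper co-receptor that macrophages also express, was more negative (interaction -5.35 ± 1.31, adjusted p = 0.0468), and its call was lost in 13 of 22 fits that left out 1 library (adjusted p up to 0.0951). The libraries were colonic myenteric replicates 1, 3, 4 and 5, colonic submucosal replicates 4, 5 and 6, small intestinal myenteric replicates 4, 5 and 6 and small intestinal submucosal replicates 3, 4 and 6.

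Of the 417 listed genes tested, 8 were more positive and 9 more negative in the small intestine. Apoa1, an apolipoprotein of enterocytes (interaction 6.48 ± 1.18, adjusted p = 0.0112), and Sst (interaction 4.30 ± 0.85, adjusted p = 0.0187) were more positive, and Stmn2 (interaction -2.51 ± 0.54, adjusted p = 0.0212) was more negative, and these kept their calls in all 22 fits that left out 1 library, as did Chrnb4 and Defa24. With female libraries alone the adjusted p was 0.0782 for Apoa1, 0.182 for Sst, 0.12 for Stmn2, 0.096 for Chrnb4 and 0.0994 for Defa24. With the epithelial and immune covariates Stmn2 (-1.96, adjusted p = 0.135), Vim (-0.94, adjusted p = 0.0964), Ngfr (-2.18, adjusted p = 0.223) and Entpd2 (-1.77, adjusted p = 0.203) were not called. Sst was at 3.42 without small intestinal submucosal replicate 1 and Apoa1 at 5.59 without colonic myenteric replicate 4. Vim, at 1789.9 ± 229.7 CPM (SD, n = 5) in colonic submucosal and 2884 ± 779 CPM (SD, n = 5) in colonic myenteric libraries, was more negative (interaction -1.33 ± 0.29, adjusted p = 0.0229), which was lost without colonic submucosal replicate 6 (adjusted p = 0.0522). Among the glial identity genes edgeR called Ngfr and Entpd2, whereas DESeq2 called 8 as more negative. Of the myelin genes edgeR called 0 and DESeq2 6, and DESeq2 called 386 of all genes (2.74%) as more negative and 191 (1.36%) as more positive. For Ngfr the colonic libraries were at 37.2 ± 34.2 CPM (SD, n = 5) and 44.7 ± 8.95 CPM (SD, n = 5) and the term was -2.95 ± 0.69 (adjusted p = 0.04). It was lost without colonic myenteric replicate 1, 2, 3 or 5, colonic submucosal replicate 2 or 6, small intestinal myenteric replicate 4 or small intestinal submucosal replicate 4 or 5 (adjusted p up to 0.0892). The call of Entpd2 (interaction -2.38 ± 0.59, adjusted p = 0.047) was lost in 16 of 22 such fits (adjusted p up to 0.108) and held without colonic submucosal replicate 1, 4 or 5, small intestinal myenteric replicate 1 or 2 or small intestinal submucosal replicate 2.

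**Figure D5:**
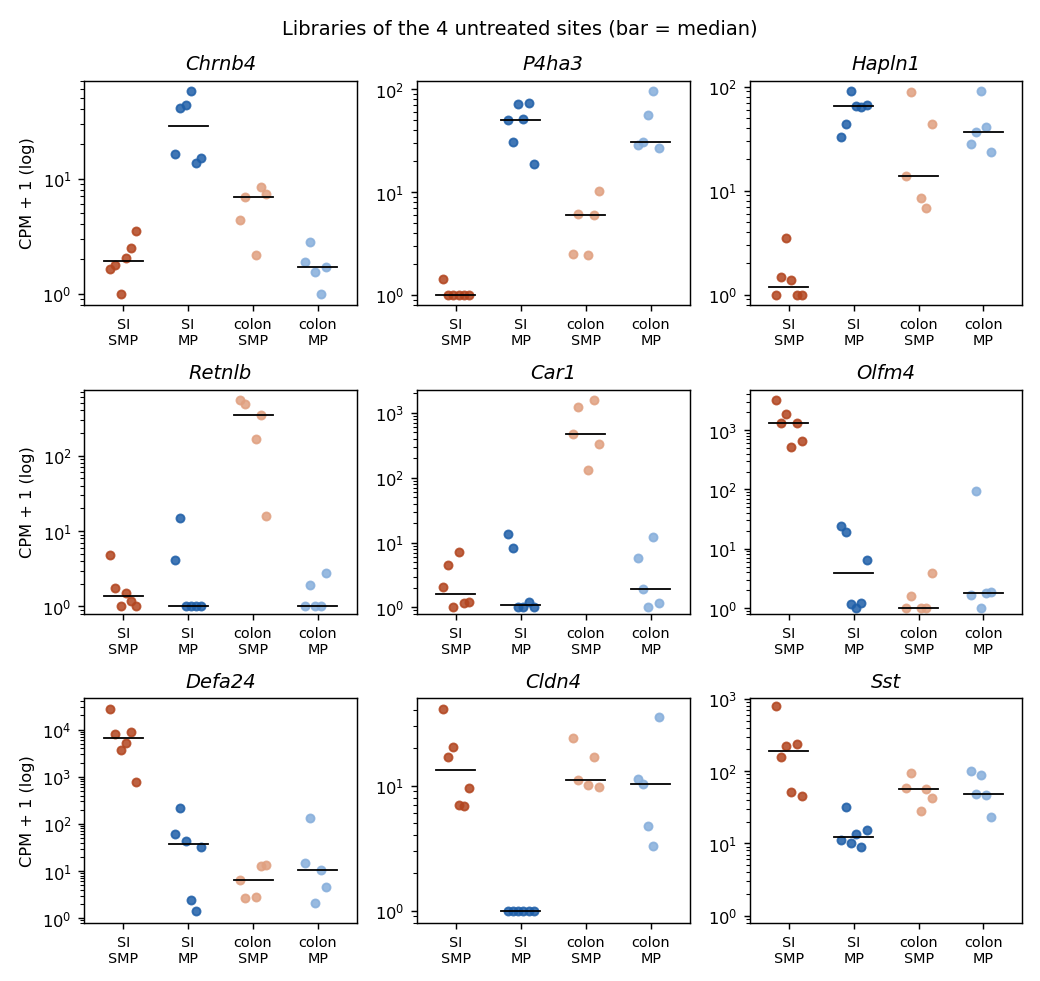
CPM + 1 (log axis) of 9 genes in the libraries of the 4 untreated sites (SI, small intestine; SMP, submucosal plexus; MP, myenteric plexus; n = 6 for each SI site and 5 for each colonic site), with a bar at the median. Chrnb4 is highest in small intestinal myenteric libraries and Retnlb in colonic submucosal libraries, and Cldn4 is at 0 CPM in small intestinal myenteric libraries.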

How the data were processed

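RNA came from RNeasy Plus Micro columns and cDNA from the Smart-seq2 protocol, which has no molecular identifiers, per the labels' protocols. The authors deposited raw read counts per gene symbol, which are whole numbers with differing totals. Per the submitters' processing notes, Trim Galore 0.4.4, STAR 2.5.3, DESeq2 and the mouse build GRCm38 were used. The counter, the annotation and the use of strand are not given in the sources used here, so reads of antisense partners and near-identical genes may be mixed.

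From the counts of the 22 untreated libraries, filterByExpr on the 4 groups kept 14090 of 21051 genes. TMM factors, glmQLFit and glmQLFTest of edgeR 4.0.16 in R 4.3.3 gave two-sided tests with Benjamini-Hochberg adjustment, called under 0.05. The SE is the log2 fold change divided by the square root of F. The ratio to the glial reference used factors that equalise the geometric mean of 6 genes (pseudocount 0.5). The interaction was the small intestinal minus the colonic difference. Where a group had no read of a gene, the fold was computed against 3 counts per library, and groups with 1 to 3 reads got a ratio with an exact 95% interval. These floors and intervals cover counting error only. Where few or no reads are left in a group, the size of a fitted fold change depends on the prior count.

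Named were the 12 genes per direction with the largest difference among called genes with separate groups and an average log2 CPM of at least 3, the glial identity genes, the 4 most abundant tested members of each of 31 lists, glial and signalling members at log2 CPM of at least 3, 8 genes per direction for the ratio and 6 for the interaction. Of these only some are printed, and a few genes are not reported here. Members of lists that were not called or went against their list, and further members of the neuronal, niche and stem lists, were named after their values were seen. The members and lists were chosen with earlier results of these data known. Coordinates are from GENCODE M21 (GRCm38), matched by symbol.

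In simulated counts with 200 changed genes among 13837, the plexus test recovered 10% of those changed 2-fold and 55% of those changed 4-fold with 2 false calls. The ratio recovered 1% and 34%, and the interaction 1% and 25%. Apart from the changed genes, the simulated plexuses shared the same mean profile and the reference genes were unchanged, unlike the data. How the tests behave when many genes and the reference shift was therefore not tested. Replicates of a group differed by more than counting noise (chi-square per degree of freedom 25.1 to 125.8). Alternatives were DESeq2 1.42.0, RLE factors, no low-count filter, sex as a covariate, a replicate block, other glial references, the 12 libraries alone, epithelial and immune covariates, each sex alone and each library left out. Figures were drawn with matplotlib. Libraries after injection are not used here.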

Additional observations from a re-analysis of the deposited data

Results flagged for a closer look

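Single libraries stood far from the other 5 of their group for 4 of 53 groups of named genes and for 0 of 62 groups of list sums, by Dixon's criterion, which by chance marks about 1 in 20 groups. Aoc1, an enterocyte oxidase, was at 216 CPM in submucosal replicate 1 and at 35.9 to 64.7 CPM in the others. Ccr7, a homing receptor of lymphocytes and dendritic cells, was at 0.719 CPM in submucosal replicate 3 and at 38.3 to 117 CPM in the others. Hand1 was at 43.2 CPM in myenteric replicate 1 and at 16.2 to 21.6 CPM in the others. Mbp was at 62.6 CPM in submucosal replicate 4 and at 111 to 133 CPM in the others.

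The plexus difference itself differed between small intestine and colon by the interaction test for the genes with the largest terms (log2, small intestinal minus colonic difference). The terms were 12.02 for Olfm4, 9.55 for Defa24, 9.49 for Defa17, 9.31 for Cldn4, 9.31 for Defa21 and 8.89 for Defa30 on the positive side. On the negative side they were -10.84 for Retnlb, -8.47 for Car1, -7.41 for Chrnb4, -6.56 for Hapln1, -5.76 for P4ha3 and -5.35 for Cd4. Of these, Olfm4, Defa17, Defa21 and Defa30 rested on colonic myenteric replicate 2, Car1 on small intestinal myenteric replicate 1 and Cd4 on any of 13 libraries, since their calls were lost without them.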

How the results depend on the processing

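The 6123 calls of the plexus comparison became 6586 with DESeq2, 6153 with RLE factors, 6251 without the low-count filter, 6203 with sex as a covariate, 5553 in the 12 libraries alone, 4491 in female and 2639 in male libraries, and 5581 to 5976 with 1 library left out. Calls by the ratio were 7920 in male libraries and 11576 to 12192 with 1 library left out. Of the genes followed singly by CPM or the ratio, 4 calls were lost in the 12 libraries alone. Without the low-count filter 1 call was lost, and with summed counts of the reference genes 1. The 168 interaction calls became 577 with DESeq2, 102 with the covariates, 32 in female libraries, 0 in male libraries (1030 at an unadjusted p under 0.05) and 97 to 246 with 1 library left out. The cause of these changes was not tested. The fits of 1 sex also hold fewer samples, and the part of this was not tested either. Whether shared replicate numbers mark paired libraries was not settled by the correlations, and the main test was unpaired. Same-numbered libraries correlated at a mean of 0.098 over 6 pairs (up to 0.233) beside -0.020 over 30 pairs of other numbers. Of the 6 pairs, 3 were over 0.1, and 2 of 6 submucosal libraries correlated best with their own number. With the replicate block the calls were 6302 (5833 shared), 11958 by the ratio and 141 for the interaction, the red blood cell list had 5 higher by the ratio, and the interaction calls of Stmn2 (adjusted p = 0.0657), Vim (0.0508) and Cd4 (0.0509) were lost. With the epithelial and immune covariates 0 genes were called, and these log2 fold changes turned: Psmb8 -0.60, Gfra3 0.42, Sfrp1 0.48, Vip 3.99, Ano1 0.61, Col3a1 1.12, Eng 0.11, Epcam -2.27, Cldn7 -3.71, Slc12a2 -0.21, Defa24 -1.45, Lyz1 -2.77, Agr2 -2.75, Chgb -6.58, Reg4 -1.86, Gcg -11.84, Rgs13 -6.53, Jchain -5.11, Mzb1 -2.24, Gzma -3.02, Cd3g -1.48, Lyz2 -0.52, C1qb -1.64, C1qa -1.92, Cd74 -0.50, H2-Ab1 -1.30, Ccna2 -2.17, Top2a -4.25, Vpreb3 -1.93 and Btg2 -0.48. The covariates were the mean levels of the epithelial and immune lists, to which Gcg, Jchain and others of these genes belong. They explained 98.8% of the variance of the plexus label, so the turned values cannot be read as plexus differences. In male libraries alone Gfra3 0.42 and Hbb-bs 0.28 turned, and in female libraries alone Kit -0.37, Col3a1 0.032 and Chgb -1.10. With 1 library left out, those that changed sign ranged from -0.15 to 0.47 for Kit, -3.94 to 0.35 for Vip, -0.40 to 0.043 for Col3a1, -1.28 to 0.39 for Hbb-bs. Depth limits genes near 3 counts per library.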
